A study of Mus musculus with 18 samples.

Results

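The genes described here are 45 genes of DNA replication and S phase, taken as the rows of the count table whose gene name is on a list of replication factors, out of 21734 protein-coding genes in that table. All 45 were found and all 45 were among the 11357 genes that passed the filter on low counts and were tested. They were sorted by role into origin licensing (10 genes), helicase activation (6), polymerases and primase (8), the sliding clamp, its loader and single-strand binding (6), flap removal and ligation (2), nucleotide supply (4), the copying of chromatin (5) and entry into S phase (4). The rule uses names alone, but the list was drawn up with earlier results of these data known.

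RNA was sequenced from mouse bone marrow-derived macrophages (BMDMs), which are grown out of bone marrow in M-CSF, the growth factor that drives macrophage precursors to divide and differentiate. WT mice, mice lacking miR-146a (KO) and mice carrying the 3′F allele were compared, and marrow came from 3 mice of each genotype, all on a 129/B6 mix and 6 to 7 months old. The paper's mass spectrometry methods give a younger age for BMDM lysates, although it describes single replicates as split between sequencing and mass spectrometry. The 3′F allele keeps the seed of miR-146a and swaps part of the 3′ region of the mature strand for sequence of the opposite hairpin arm. Both alleles were made in embryonic stem cells, and so every cell of the mouse, bone marrow precursors included, carries them. After 8 to 9 days in 10 ng/ml M-CSF, the cells of each genotype were given fresh medium alone (resting) or fresh medium with 1 ng/ml LPS, the bacterial ligand of TLR4, and were harvested 16 h later. This gave 6 groups of 3 libraries. The comparisons ask whether loss of miR-146a, or of its 3′ pairing alone, changes expression of these genes in macrophages at rest and after an inflammatory stimulus.

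A cell copies its genome once per division. In G1 the origin recognition complex, Cdc6 and Cdt1 load the ring of Mcm2 to Mcm7 on DNA, and at the start of S phase cyclin E kinase and other factors turn the loaded ring into the active helicase, on which the primase, the replicative polymerases, the Pcna clamp and its loader are assembled. Ribonucleotide reductase, thymidylate synthase and thymidine kinase supply the nucleotides, while Chaf1a, Chaf1b, Dnmt1 and Uhrf1 rebuild chromatin and DNA methylation behind the fork. Many of these genes are switched on together by E2F factors at the end of G1. BMDMs are known to divide in M-CSF and to leave the cell cycle when given LPS.

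Because many of these genes are known E2F targets, their promoters were searched for 4 words of 8 bases that match the textbook E2F site on either strand, TTTCCCGC, TTTCGCGC, TTTGCCGC and TTTGGCGC. RefSeq promoter windows of build GRCm38.p6, from 250 bases before to 50 after the start of each transcript, were given for 37 of the 45 genes. At least 1 word stood in the window of 16 of these 37 genes (43.2%), against 424 of 8907 tested genes with a window (4.76%) and 2.605% of all 27025 genes with a window. The share was 7 of 9 in origin licensing and 0 of 4 in nucleotide supply. The 23 words started a median of 27 bases before the start site, and words can overlap each other, as they do in Mcm5 and Mcm6. Mcm4, Gins1, Gins2, Gins4, Prim2, Pole, Rfc2 and Ccne2 were not matched. The following stretches of 30 bases show the word, in capitals, for genes to which the comparisons below return, written 5′ to 3′ on the strand of the gene.
Mcm5, chr8:75109345-75109374, plus strand: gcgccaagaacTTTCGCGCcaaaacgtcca
Mcm6, chr1:128359797-128359826, minus strand: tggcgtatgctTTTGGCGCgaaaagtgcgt
Mcm7, chr5:138171849-138171878, minus strand: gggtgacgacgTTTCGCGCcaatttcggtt
Cdc6, chr11:98908002-98908031, plus strand: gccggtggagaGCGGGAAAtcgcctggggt
Pola1, chrX:93632275-93632304, minus strand: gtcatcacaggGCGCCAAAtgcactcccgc
Lig1, chr7:13278841-13278870, plus strand: cgccaaagtgcGCGCGAAAtctgtgtggcg
Uhrf1, chr17:56304117-56304146, plus strand: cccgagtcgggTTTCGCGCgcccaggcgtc
E2f2, chr4:136172294-136172323, plus strand: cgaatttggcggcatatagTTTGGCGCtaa
In Cdc6, Pola1 and Lig1 the capitals read as the reverse complement of the word. A match describes the letters of the window and does not show that a factor binds there.

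The mature strand of miR-146a, from chr11:43374435-43374456 on the minus strand of GRCm38.p6, is shown with its seed, bases 2 to 8, in capitals. The KO mice lack this miRNA, and the 3′F allele keeps its seed but not its whole sequence. The related miR-146b has the same seed and comes from another locus, whose sequence was edited in neither line. The paper reports small RNA sequencing that pointed to higher mature miR-146b in KO BMDMs and not in 3′F BMDMs. Its level cannot be read from the counts used here.
miR-146a-5p: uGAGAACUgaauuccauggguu
A match to bases 2 to 8, or to bases 2 to 7 followed by an A, stood in the longest annotated 3′ UTR of 3 of the 45 genes (6.67%). This held for 2326 of 11261 tested genes with a 3′ UTR (20.7%). Uhrf1 has a match to bases 2 to 8, and Gins2 and Mcm10 have matches to bases 2 to 7 followed by an A. The median 3′ UTR was 531 bases long in the 45 genes and 1171 in the tested genes. The 3 matches, in capitals within 30 bases of UTR, are those of a GINS subunit, a helicase activator and the reader of hemimethylated DNA.
Gins2: catgcatggcacGTTCTCAatttgtaagct
Mcm10: ggtgggagatgtGTTCTCAtctgctcaggg
Uhrf1: atgctggtaggAGTTCTCcccacaccagct
For none of these 3 was a higher level called in KO than in WT in either state, and Gins2 and Uhrf1 were among the genes called lower in KO, as given below.

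Libraries held 4071084 to 19818043 counts, of which 9819 to 35450 fell on the 45 genes. Resting KO replicate 3 stood apart from the other resting libraries, with a summed level of 14 interferon-stimulated genes of 13250 CPM against 590.4 and 781 in the other resting KO libraries and 163 to 337 in resting WT (CPM, counts per 1000000 of scaled library size). Resting 3′F replicate 3 was the shallowest library and also stood apart from its group. The number of the 45 genes called in a comparison that includes either library is given with and without it. So are single calls that its omission changed among the genes described in full. Other counts of the 45 genes, such as those by role, without overlap or shared between comparisons, are given only with all libraries. The label was checked against markers. All 10 macrophage markers, Csf1r, Adgre1 and Cd68 among them, were detected in each group, with a summed level of 32092 to 88355 CPM. Markers of granulocytes and their precursors summed to 13.9 to 66.7 CPM at rest and 28.6 to 67.3 with LPS, with Ly6g at 0 in each resting group. Markers of progenitors reached at most 6.09 CPM, in resting 3′F, those of erythroid cells 2.11, of T cells 0.724, of B cells 0.869, of dendritic cells 3.04, of mast cells and basophils 0.234 and of fibroblasts 2.86. Resting 3′F replicate 3 held the progenitor, erythroid, dendritic and mast cell maxima and the highest granulocyte sum at rest. That library also had the highest sum over the 45 genes, 2299 CPM, and the relation was not tested. The macrophage sum moved with genotype and with LPS, from 32092 to 48037 CPM in resting WT to 60872 to 62872 in resting KO and 71602 to 88355 in KO with LPS, and its part in the results was not tested.

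In resting WT BMDMs the 45 genes together took 2004 ± 9.10 CPM (SD, n = 3). Per kb of exon, their levels ran from 1.06 CPM for Orc1, a subunit of the origin recognition complex, to 216 CPM for Pcna, the sliding clamp, with a median of 8.84 CPM per kb. Pcna alone exceeded the next gene, Mcm6 at 39.3 CPM per kb, by far more than its SD of 8.66. Dnmt1 at 34.7 ± 2.31 and Rrm1 at 34.5 ± 0.665 CPM per kb followed, and these 2 did not differ beyond their SD. The resting WT libraries were close to each other, with a median coefficient of variation over the genes of 9.81%.

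**Figure D1:**
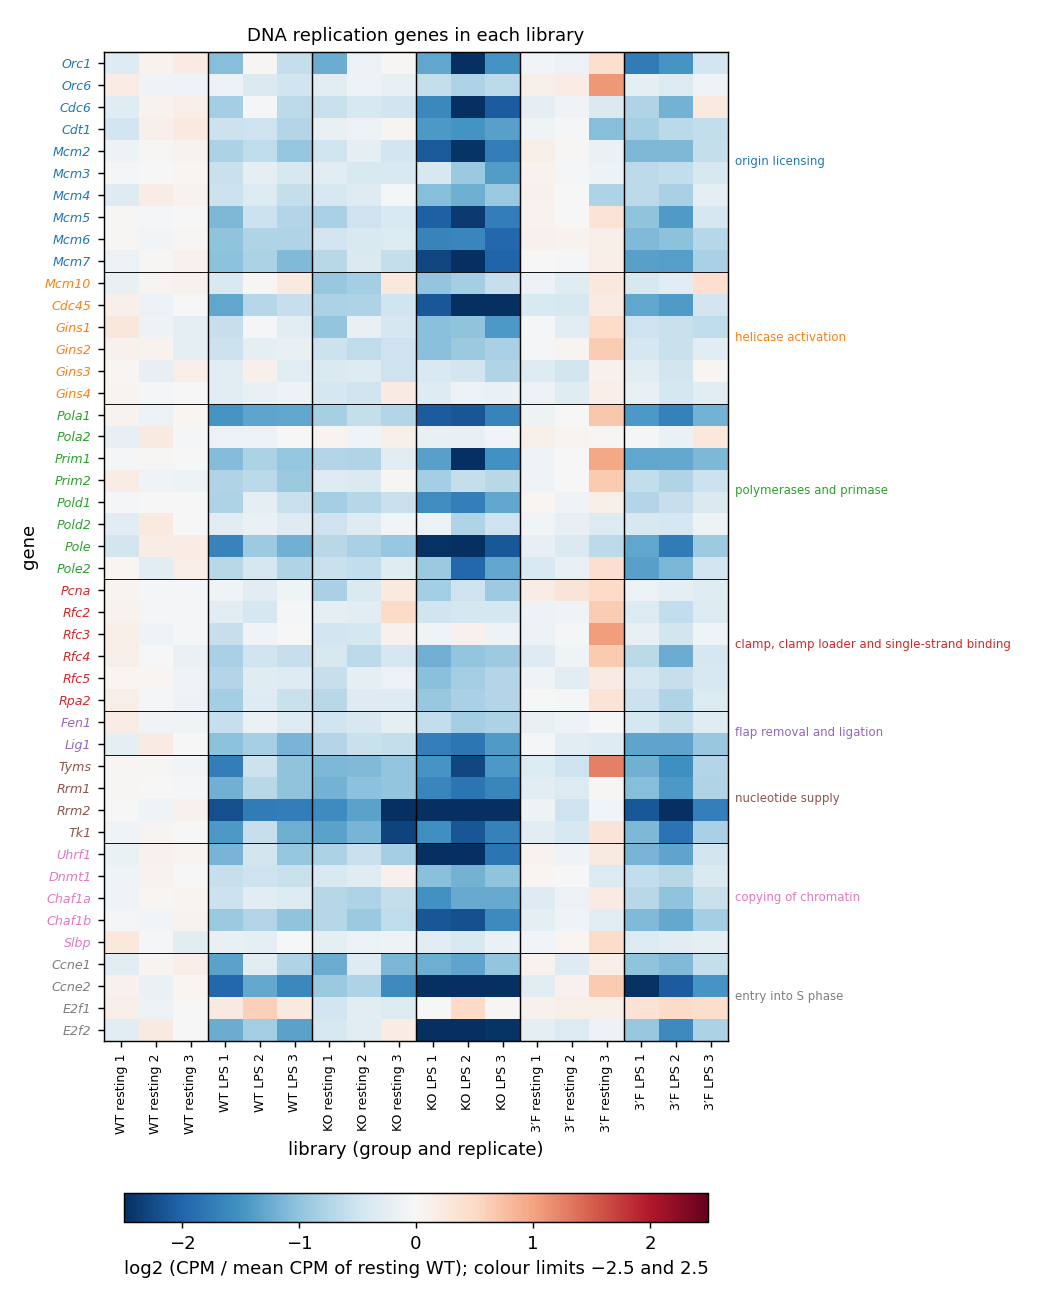
Level of each of the 45 genes (rows, by role) in each of the 18 libraries (columns), as log2 of the CPM over the mean CPM of resting WT, blue for lower and red for higher. The 3 KO libraries with LPS are the bluest block, WT and 3′F with LPS and resting KO are paler, and resting 3′F replicate 3 has the reddest column.

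Across the 6 groups the mean level of a typical gene, as the median over the 45, was 73.8% of its resting WT level in resting KO, 67.7% in WT with LPS and 39.6% in KO with LPS. It was 101% in resting 3′F and 61.4% in 3′F with LPS. KO with LPS was the lowest of the 6 groups for 40 of the 45 genes, and 28 genes there were under 50% and 10 under 25% of their resting WT level. The exceptions were Prim2, lowest in WT with LPS, E2f1, lowest in resting KO, and Gins4, Rfc3 and Slbp, lowest in 3′F with LPS. The same counts were not made over all tested genes, so they do not set the 45 genes apart from others. In bulk RNA, fewer cells in S phase and less of these transcripts per cell cannot be told apart.

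**Figure D2:**
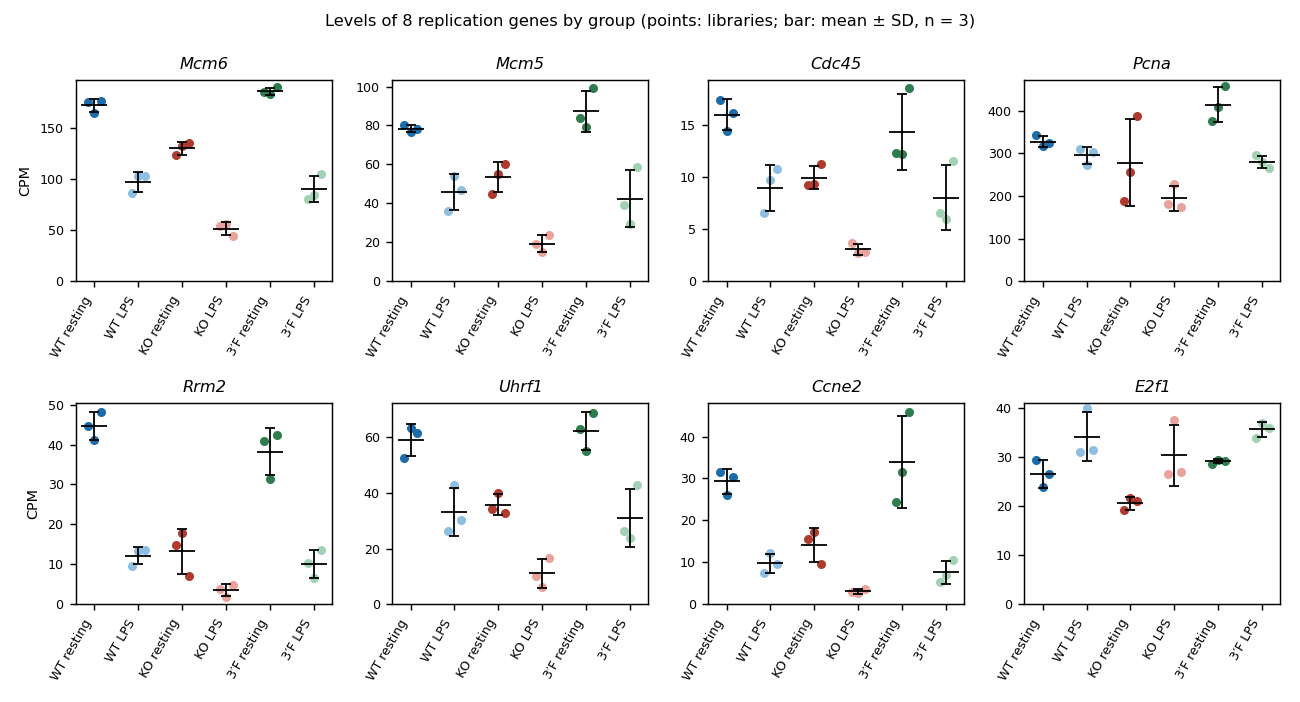
CPM of 8 of the genes in each library (points), with the mean and SD of each group (bars, n = 3), on axes that start at 0. For Mcm6, Mcm5, Cdc45, Rrm2, Uhrf1 and Ccne2 the KO libraries with LPS are the lowest of all, while E2f1 shows no such fall.

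Resting KO BMDMs had lower levels of replication genes than resting WT. By edgeR's quasi-likelihood test with Benjamini-Hochberg adjustment over all genes tested, 11 of the 45 genes were called lower in KO at an adjusted p under 0.05 and 0 were called higher, while 4.27% of all tested genes were called lower and 5.12% higher. The median log2 fold change was −0.44 over the 45 genes and 0.02 over all tested genes. For 30 of the 45 genes the 3 KO libraries all lay below the 3 WT libraries, which was so for 13.1% of all tested genes. The 2 genes with a log2 fold change above 0 were Pola2 at 0.04 and Rfc2 at 0.03. Without resting KO replicate 3, 10 genes were called lower, against 3.42% of all tested genes, and the median was −0.52. Of the 11, Mcm6, Gins2, Pola1 and Ccne2 were then not called, and Mcm10, Gins4 and Pcna were called in addition. The count fell to 7 without resting WT replicate 1, to 6 without resting WT replicate 2 and to 7 without resting KO replicate 1, and all of the genes still called were among the 11. With limma-voom quality weights 29 genes were called, the 11 among them. For the 10 genes called without resting KO replicate 3 the share of all tested genes is given. For other counts of the 45 genes from a changed fit or library set, here and below, it is not. Those counts do not by themselves set the 45 genes apart from others.

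With LPS the difference between KO and WT was called for more of the genes. Of the 45, 20 were called lower in KO and 0 higher by the same test, against 2.9% of all tested genes called lower and 1.89% higher. The median log2 fold change was −0.67, beside 0.01 over all tested genes, and in 33 of the genes all KO libraries lay below all WT libraries, which held for 16.1% of all tested genes. The count was 12 without WT LPS replicate 2 and 11 without KO LPS replicate 2, and in each case all of these were among the 20. WT LPS replicate 2 had the highest median of its group over the 45 genes, −0.41 against −0.78 and −0.59 relative to resting WT. Its summed level of interferon-stimulated genes was the lowest of that group, 3310 CPM against 7617 and 17796. The relation was not tested. The resting and LPS comparisons use different libraries. Mcm6, Gins2, Pold1, Lig1, Rrm1, Rrm2, Chaf1a, Chaf1b and Ccne2 were called in both, which is 81.8% of the 11 genes called at rest and 45% of the 20 called with LPS. Of these, Mcm6, Gins2 and Ccne2 were not called at rest without resting KO replicate 3. Pola1 and Tk1 were called at rest alone, 11 genes with LPS alone and 23 genes in neither. Over all tested genes these overlaps were not counted. The share of all tested genes called lower in both states cannot exceed the 2.9% called lower with LPS.

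**Figure D3:**
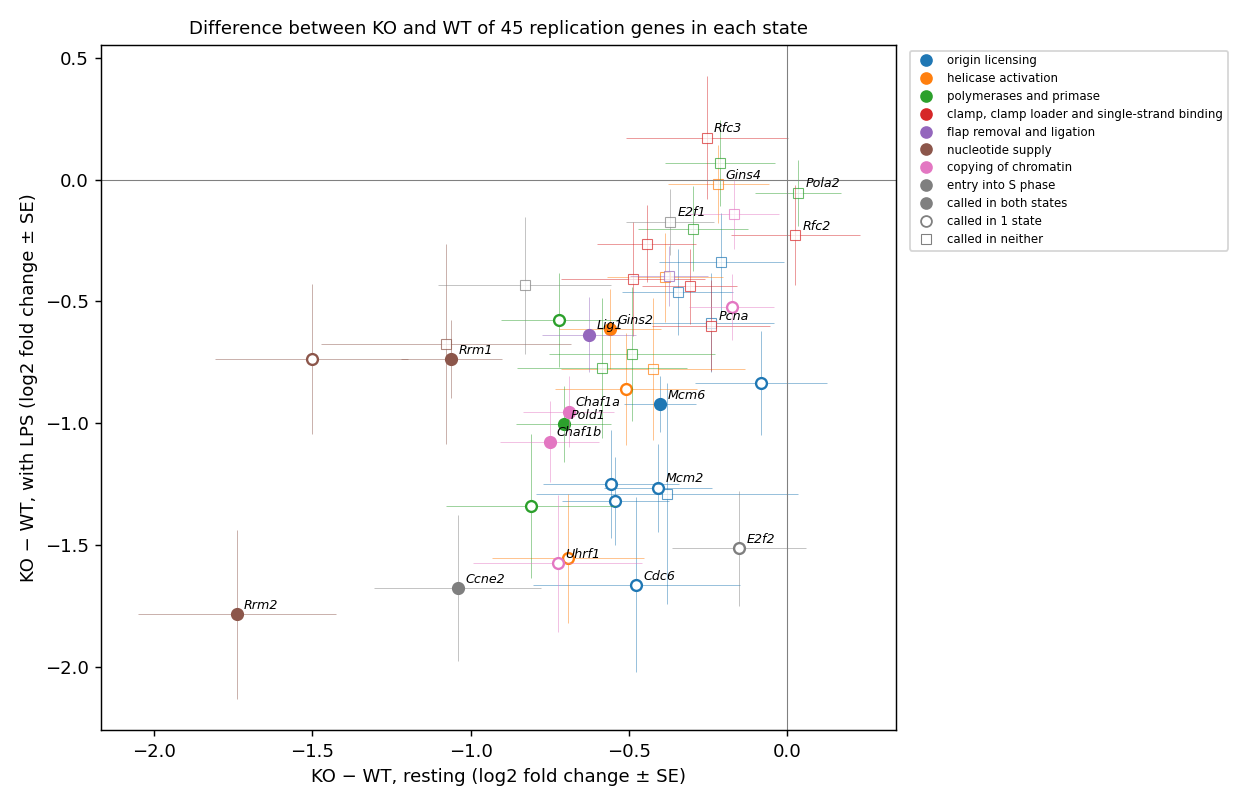
Log2 fold change between KO and WT at rest (x axis) and with LPS (y axis) for the 45 genes, with SE bars, coloured by role. Filled circles were called in both states, open circles in 1 and squares in neither. Rrm2 lies farthest to the lower left, while Cdc6 and E2f2 differ with LPS more than at rest.

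Among the licensing genes, 1 of 10 was called lower in KO at rest and 6 of 10 with LPS, with medians of −0.39 and −1.09. Mcm6, a subunit of the replicative helicase and the licensing gene with the highest level per kb, stood at 175, 165 and 176 CPM in the resting WT libraries and at 123, 132 and 136 in resting KO. With LPS it stood at 86.2, 103 and 103 CPM in WT and at 54.3, 55.6 and 43.9 in KO. KO libraries lay below WT libraries in both states, by −0.40 ± 0.11 at rest (log2, SE, edgeR adjusted p = 0.0372) and by −0.92 ± 0.12 with LPS (edgeR adjusted p = 0.000301). The resting call of Mcm6 was lost in 9 of its 12 alternative settings, among them without resting KO replicate 3 (edgeR adjusted p = 0.0509).

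Mcm5, another subunit of the ring, had the largest resting difference of the licensing genes. Its resting levels were 80.1, 76.4 and 78.3 CPM in WT and 44.9, 54.8 and 60.2 in KO. With LPS they were 36.1, 54.3 and 47.1 CPM in WT and 19.1, 14.99 and 23.6 in KO. The groups did not overlap in either state, but the resting difference of −0.56 ± 0.21 was not called (edgeR adjusted p = 0.123), and that with LPS, −1.25 ± 0.22, was (edgeR adjusted p = 0.00483). Cdc6, the loading ATPase, was at 5.51, 9.69 and 6.30 CPM in WT with LPS and at 3.24, 1.16 and 2.35 in KO with LPS, a difference of −1.66 ± 0.36. Mcm2 at −1.27, Mcm7 at −1.32 and Cdt1 at −0.84 were the other licensing genes called with LPS.

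Of the 6 genes of helicase activation, 1 was called lower in KO at rest, Gins2, and 3 with LPS, Cdc45, Gins1 and Gins2. Cdc45, which joins the ring and the GINS complex into the active helicase, had 17.3, 14.4 and 16.1 CPM in resting WT and 9.21, 9.33 and 11.2 in resting KO. With LPS it had 6.49, 9.69 and 10.7 CPM in WT and 3.65, 2.68 and 2.78 in KO. Its KO libraries were lower in both states, and the difference was called with LPS (−1.56 ± 0.26, edgeR adjusted p = 0.0037) and not at rest (−0.69 ± 0.24, edgeR adjusted p = 0.0840). Gins4, the subunit with the highest level per kb, behaved otherwise. It was at 35.4, 32.5 and 33.5 CPM in resting WT and at 24.8, 24.0 and 38.8 in resting KO, where replicate 3 exceeded every WT library. With LPS the WT libraries at 28.1, 29.6 and 30.9 CPM and the KO libraries at 26.9, 30.4 and 30.2 overlapped, and neither difference was called. Without resting KO replicate 3 the resting difference of Gins4 was −0.47 and was called (edgeR adjusted p = 0.0356), against −0.22 with it. Mcm10, a helicase activator with the same split in resting KO, was at 7.60 and 8.18 CPM in replicates 1 and 2 and at 17.6 in replicate 3, against 12.9 to 15.8 in resting WT. Its resting difference was −0.42 ± 0.29 and not called, and without replicate 3 it was −0.89 ± 0.25 and called (edgeR adjusted p = 0.0401).

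Among the polymerases and the primase, 2 of 8 were called lower in KO in each state. Pold1, the catalytic subunit of polymerase delta, was called in both, with −0.71 ± 0.15 at rest and −1.004 ± 0.16 with LPS. Pole, the catalytic subunit of polymerase epsilon, had 15.4, 23.9 and 24.1 CPM in resting WT and 13.04, 12.005 and 10.9 in resting KO. With LPS it had 6.63, 11.2 and 9.24 CPM in WT and 3.79, 2.03 and 4.85 in KO. No KO library reached a WT library of the same state. The resting difference of −0.81 ± 0.27 was not called (edgeR adjusted p = 0.0700) and that with LPS, −1.34 ± 0.29, was (edgeR adjusted p = 0.0161), though not in 3 of its 12 alternative settings. Prim2, the large subunit of the primase, differed little between genotypes. It was at 25.2, 20.7 and 20.2 CPM in resting WT and at 17.7, 17.2 and 22.5 in resting KO, and with LPS at 13.1, 13.8 and 11.7 CPM in WT and 12.2, 14.6 and 13.7 in KO. The groups overlapped in both states.

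Of the 6 genes of the clamp, its loader and single-strand binding, 0 were called between KO and WT in either state by edgeR with all libraries. Pcna showed the widest spread in resting KO, at 188, 257 and 389 CPM, around the resting WT levels of 343, 318 and 324. With LPS its KO libraries, at 182, 229 and 175 CPM, lay below the WT libraries at 309.7, 274 and 304, but the difference of −0.60 ± 0.19 was not called (edgeR adjusted p = 0.0782). Resting KO replicate 3, the library with the high interferon-stimulated genes, gave the high Pcna value. The resting difference of Pcna was −0.24 ± 0.19 and not called with that library, and −0.56 ± 0.14 and called without it (edgeR adjusted p = 0.0264). Rfc4, a subunit of the clamp loader, had 11.8, 10.6 and 9.48 CPM in resting WT and 8.10, 6.73 and 7.97 in resting KO, and 6.07, 7.51 and 7.11 CPM in WT against 4.61, 5.36 and 5.63 in KO with LPS. The groups did not overlap in either state, and neither difference was called.
Rfc2, another loader subunit, had the smallest resting difference of the genes, 0.03 ± 0.20, with 42.6, 39.0 and 39.4 CPM in WT and 34.4, 33.3 and 56.0 in KO. Without resting KO replicate 3 the sign turned and the difference was −0.25, also not called.

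Fen1, the flap endonuclease, and Lig1, the DNA ligase, finish the lagging strand. Fen1 stood at 77.0, 64.2 and 62.8 CPM in resting WT and 48.5, 51.8 and 57.6 in resting KO, and at 45.8, 60.3 and 53.7 in WT and 44.6, 37.6 and 39.4 in KO with LPS. Its KO libraries lay below those of WT in both states, by −0.37 ± 0.12 and −0.39 ± 0.12, neither of which was called (edgeR adjusted p = 0.0679 and 0.0752). Lig1 had 28.2, 38.6 and 33.6 CPM in resting WT and 20.3, 22.6 and 22.2 in resting KO, and 16.5, 18.9 and 14.95 in WT and 10.2, 9.56 and 12.6 in KO with LPS. It was called lower in both states, by −0.62 ± 0.15 at rest and −0.64 ± 0.15 with LPS. The resting call was lost in 3 and that with LPS in 5 of 12 alternative settings, with edgeR adjusted p up to 0.0859 without resting WT replicate 2 and 0.149 without KO LPS replicate 2.

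The nucleotide supply genes had the largest median resting difference of the 8 roles, −1.29, and 3 of 4 genes were called lower. Rrm2, the small subunit of ribonucleotide reductase that is made in S phase, fell from 44.7, 41.3 and 48.2 CPM in resting WT to 14.96, 17.7 and 6.96 in resting KO. With LPS it was at 9.70, 13.4 and 13.6 CPM in WT and at 3.79, 1.88 and 4.92 in KO. It was 3.34-fold lower in KO at rest (log2 −1.74 ± 0.31, edgeR adjusted p = 0.00362) and 3.45-fold lower with LPS (−1.79 ± 0.35, edgeR adjusted p = 0.00772), and no libraries overlapped. Without resting KO replicate 3, its lowest resting library, the resting difference was −1.45 ± 0.28 and still called. Without KO LPS replicate 2 the call with LPS was lost (edgeR adjusted p = 0.0506). In KO with LPS its mean was 7.90% of the resting WT level, the lowest of the 45 genes. Rrm1, the large subunit of the same enzyme, had 141, 137 and 136 CPM in resting WT and 61.0, 68.1 and 69.4 in resting KO. With LPS the WT libraries were at 59.9, 85.5 and 68.5 CPM and the KO libraries at 44.6, 38.9 and 44.8, so that KO was lower without overlap in both states, by −1.06 ± 0.16 and −0.74 ± 0.16. The call with LPS was lost in 2 of 12 alternative settings, with an edgeR adjusted p of 0.101 without WT LPS replicate 2. Tk1, thymidine kinase, was called at rest (−1.50 ± 0.30), where KO replicate 3 was again the lowest library at 5.95 CPM against 11.7 and 13.2 in replicates 1 and 2. Without it the difference of Tk1 was −1.25 ± 0.29 and still called. Tyms, thymidylate synthase, was at 15.6, 15.5 and 14.4 CPM in resting WT and 6.92, 7.03 and 7.63 in resting KO, and its difference of −1.08 ± 0.39 was not called (edgeR adjusted p = 0.102) although the groups did not overlap.

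Of the 5 genes that copy chromatin, 2 were called lower in KO at rest and 4 with LPS. Chaf1a and Chaf1b, subunits of the chromatin assembly factor, were called in both states. Chaf1b had 17.4, 16.9 and 18.8 CPM in resting WT and 10.8, 9.33 and 11.5 in resting KO, and 9.28, 10.7 and 8.87 in WT and 3.99, 3.84 and 5.85 in KO with LPS. Its KO libraries were lower in both states, by −0.75 ± 0.16 and −1.08 ± 0.17. Uhrf1, which brings the maintenance methyltransferase to hemimethylated DNA, was at 26.4, 42.7 and 30.3 CPM in WT with LPS and at 10.3, 6.37 and 16.7 in KO with LPS, a difference of −1.58 ± 0.28. Dnmt1, that methyltransferase, was at 197, 225 and 214 CPM in resting WT and at 162, 173 and 228 in resting KO, where replicate 3 exceeded every WT library. With LPS it was at 142, 147 and 144 CPM in WT and 103, 93.5 and 105 in KO, and only this difference was called (−0.52 ± 0.14, edgeR adjusted p = 0.0365). The call was lost in 8 of 12 alternative settings, with an edgeR adjusted p of up to 0.163 without KO LPS replicate 2. Slbp, which binds the stem-loop of histone mRNAs, was called in neither.

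Among the regulators of S-phase entry, Ccne2, which encodes cyclin E2, was called lower in KO in both states. It had 31.5, 26.0 and 30.5 CPM in resting WT and 15.5, 17.3 and 9.66 in resting KO, and 7.54, 12.1 and 9.603 in WT and 2.96, 2.61 and 3.57 in KO with LPS. The differences were −1.04 ± 0.26 and −1.68 ± 0.30 without overlap. The resting call was lost in 4 of 12 alternative settings, with an edgeR adjusted p of 0.0659 without resting KO replicate 3 and 0.0687 without resting WT replicate 1. E2f1 and E2f2 encode activator E2Fs. E2f2 overlapped between the genotypes at rest, with 23.2, 32.9 and 28.6 CPM in WT and 21.4, 23.1 and 32.1 in KO. With LPS it stood at 11.9, 15.4 and 11.1 CPM in WT and 4.89, 3.40 and 5.14 in KO, a called difference of −1.51 ± 0.23. E2f1 had 29.4, 23.9 and 26.5 CPM in resting WT and 19.2, 21.7 and 20.995 in resting KO, and 31.1, 40.1 and 31.4 in WT and 26.5, 37.6 and 27.0 in KO with LPS. Neither E2f1 difference was called.

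No replication gene was called between 3′F and WT. Of the 45 genes 0 were called between 3′F and WT in either state by edgeR, and 0 by DESeq2 or by limma-voom with quality weights. Of all tested genes, 0% were called at rest and 0.00881% with LPS. At an unadjusted p under 0.05 stood 1 gene at rest, Orc6, an origin recognition subunit (0.49 ± 0.20, unadjusted p = 0.0241, edgeR adjusted p = 0.843), and 1 with LPS, Chaf1a (−0.36 ± 0.14, unadjusted p = 0.0220, edgeR adjusted p = 1.00). Of all 11357 tested genes, 557 at rest and 106 with LPS stood at an unadjusted p under 0.05. The median log2 fold change was 0.02 at rest, with 22 of 45 genes below 0, against 49.4% of all tested genes. With LPS it was −0.11, with 38 of 45 below 0, against 52.1% of all tested genes. This shift with LPS was not tested. At rest single genes ran from −0.38 to 0.49 and their median SE was 0.19, which does not show that the genotypes are alike. Mcm6 was at 185, 183 and 189.9 CPM in resting 3′F and at 80.4, 84.8 and 105 in 3′F with LPS. Rrm2 was at 40.9, 31.4 and 42.4 CPM in resting 3′F and at 10.3, 6.63 and 13.6 with LPS. Orc6 at 17.4, 17.96 and 33.5 CPM, Tyms at 11.97, 10.5 and 36.5 and Rfc3 at 16.8, 18.02 and 37.9 show how far resting 3′F replicate 3 stood from its group. Without that library the resting median was −0.10 and 0 genes were called.

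Compared directly, KO was lower than 3′F. At rest 17 of the 45 genes were called lower and 0 higher, against 6.1% of all tested genes called lower and 6.79% higher, with a median of −0.50. With LPS 16 were called lower and 0 higher, against 2.37% lower and 1.51% higher, with a median of −0.52. These comparisons use the same KO libraries as those with WT and are therefore given side by side with them and not counted as separate evidence. Rrm2 differed by −1.51 ± 0.32 at rest and −1.49 ± 0.35 with LPS, and Mcm6 by −0.51 ± 0.11 and −0.81 ± 0.12. The resting count moved with single libraries and with the fit. It was 8 without resting 3′F replicate 3, 9 without resting KO replicate 1, 13 without resting KO replicate 3, 11 with the replicate number as a block, 29 with limma-voom quality weights and 0 when the 2 groups were fitted alone. The count with LPS was 9 without KO LPS replicate 1, 6 without KO LPS replicate 2 and 7 without 3′F LPS replicate 3.

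Replication genes were lower after LPS in BMDMs of each genotype. In WT 24 of the 45 genes were called lower and 0 higher, against 12.3% of all tested genes called lower and 16.3% higher, and the median log2 fold change was −0.56. In KO 27 were called lower and 1 higher, against 12.6% lower and 14.3% higher, with a median of −0.64. In 3′F 33 were called lower and 0 higher, against 14% lower and 17.2% higher, with a median of −0.73. The count in WT was 13 without WT LPS replicate 1, and that in 3′F was 17 without 3′F LPS replicate 2. Without resting KO replicate 3 the KO count was 24, and without resting 3′F replicate 3 the 3′F count was 27.

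The LPS response of 19 genes was called in all 3 genotypes, among them Mcm2, Mcm5, Mcm6 and Mcm7, Pola1, Prim1, Rrm1, Rrm2, Uhrf1, Dnmt1 and Ccne2, against 16.2% of all tested genes. In 2 genotypes 9 genes were called, against 10.6%, and in 1 genotype 10, against 17%. Mcm10, Gins1, Gins3, Gins4, Pola2, Pold2 and Rfc3 were called in 0, as were 56.2% of all tested genes. All 19 were called lower in all 3 genotypes, against 6.89% of all tested genes. Rrm2 had log2 fold changes of −1.87 ± 0.31 in WT, −1.92 ± 0.35 in KO and −1.93 ± 0.32 in 3′F, within 1 SE of each other. Ccne2 had −1.58 ± 0.27, −2.22 ± 0.30 and −2.17 ± 0.28, and Mcm6 had −0.82 ± 0.11, −1.34 ± 0.12 and −1.05 ± 0.12, in the same order. E2f1, the activator E2F, went against the rest, with 26.6 ± 2.78 CPM at rest and 34.2 ± 5.07 with LPS in WT, 20.6 ± 1.32 and 30.4 ± 6.26 in KO, and 29.1 ± 0.423 and 35.7 ± 1.56 in 3′F (SD, n = 3 each). It was called higher in KO (0.56 ± 0.14, edgeR adjusted p = 0.00670) and not in WT (0.36 ± 0.14, edgeR adjusted p = 0.0588) or 3′F. Without KO LPS replicate 2, which at 37.6 CPM lay above the others at 26.5 and 27.0, the KO call was lost (edgeR adjusted p = 0.0921).

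**Figure D4:**
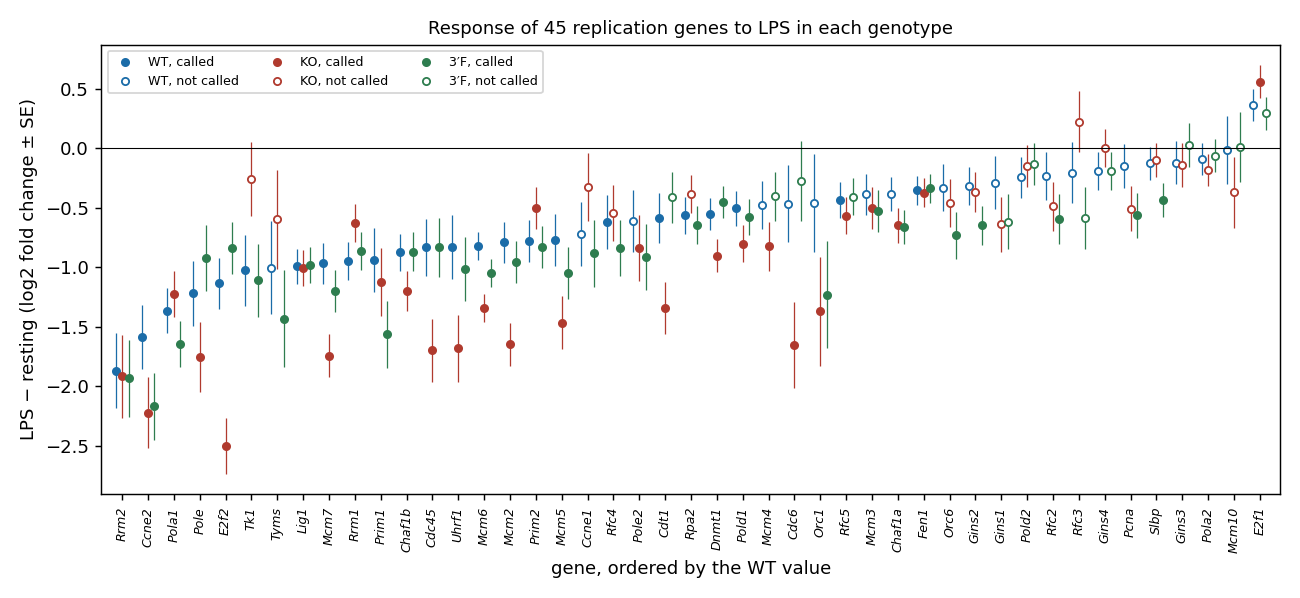
Log2 fold change of each of the 45 genes between LPS and resting libraries in WT (blue), KO (red) and 3′F (green), with SE bars, ordered by the WT value. Filled points were called. Nearly all points lie below 0, E2f1 lies above it, and the red points of E2f2, Cdc6, Mcm2 and Mcm7 lie below their blue points.

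Whether the LPS response itself differed between genotypes was tested by an interaction term. Of the 45 genes 0 were called by edgeR for KO against WT, against 0.00881% of all tested genes, and 0 for 3′F against WT, against 0%. At an unadjusted p under 0.05 were 9 genes for KO, all with a larger fall in KO, beside 560 of all 11357 tested genes, and 0 for 3′F. These 9 were E2f2, Mcm2, Mcm6, Mcm7, Cdt1, Cdc6, Cdc45, Mcm5 and Uhrf1. The interaction of E2f2 was the largest, at −1.36 ± 0.31 (edgeR adjusted p = 0.482), and DESeq2 called this gene alone (adjusted p = 0.0288). The LPS response of E2f2 was −1.14 ± 0.22 in WT, −0.84 ± 0.22 in 3′F and −2.50 ± 0.24 in KO. The median interaction of the 10 licensing genes was −0.72, with 10 of 10 below 0. That of the 4 nucleotide supply genes was 0.36, with 1 of 4 below 0. Of all tested genes, 53.4% were below 0. The median was −0.33 in the copying of chromatin, −0.22 in entry into S phase and −0.20 in helicase activation. It was −0.14 in polymerases and primase, −0.03 in the clamp, its loader and single-strand binding and −0.02 in flap removal and ligation. Differences between roles were not tested. Over all 45 genes it was −0.19, and −0.07 without resting KO replicate 3, beside −0.02 over all tested genes. The medians by role are given only with that library included. Over the 30 mitosis genes described below, the median interaction was 0.66, with 1 of 30 below 0 and 0 called.

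**Figure D5:**
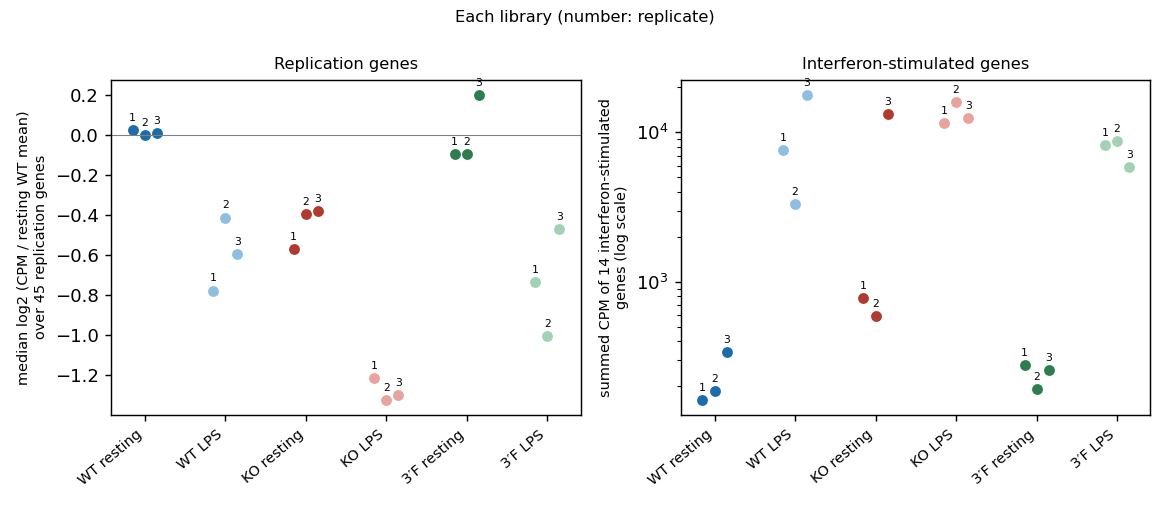
For each library (points, numbered by replicate), the median over the 45 genes of log2 CPM relative to resting WT (left) and the summed CPM of 14 interferon-stimulated genes on a log axis (right). Resting KO libraries lie between −0.57 and −0.38 on the left, resting KO replicate 3 among them, while on the right that library lies with the LPS libraries.

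The resting KO libraries had medians over the 45 genes of −0.57, −0.39 and −0.38 on the log2 scale relative to resting WT. Their sums over the 45 genes were 1301, 1458 and 1708 CPM, and 44, 45 and 34 of the genes lay below their resting WT mean. Replicate 3 was thus near replicate 2 in the median and apart from both others in the sum and in the number of genes below WT. WT libraries with LPS were at −0.78, −0.41 and −0.59, and KO libraries with LPS at −1.21, −1.32 and −1.30, below every other library. Resting 3′F libraries were at −0.09, −0.09 and 0.20, and 3′F libraries with LPS at −0.73, −1.01 and −0.47.

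Other genes of the pathway were read from lists of related factors, to be set against the 4.27% of all tested genes called lower and 5.12% called higher in resting KO, and 2.9% and 1.89% with LPS. Of 13 other licensing and firing factors 1 was called lower in resting KO than in WT, Dbf4, the regulatory subunit of the Cdc7 kinase (−0.85 ± 0.21), and 2 with LPS, Cdc7 (−1.14 ± 0.22) and Topbp1 (−0.38 ± 0.10). Of 22 other replisome and fork genes 2 were called lower at rest, Clspn, the checkpoint mediator claspin (−1.14 ± 0.28), and Chtf18, a subunit of an alternative clamp loader (−0.94 ± 0.25), and 3 with LPS. Of 6 other chromatin genes 1 was called lower at rest, the histone chaperone Asf1b (−1.23 ± 0.26), and 1 with LPS, Hells (−0.91 ± 0.20). In the 19 other genes of nucleotide metabolism 0 were called lower at rest, and 2 were called higher in KO, Dck, deoxycytidine kinase (1.76 ± 0.50), and Samhd1, which degrades deoxynucleotides (1.63 ± 0.44). Both rested on resting KO replicate 3, the library with the high interferon-stimulated genes. Dck was at 36.3, 46.1 and 49.7 CPM in resting WT and at 60.9, 51.9 and 336 in resting KO, and Samhd1 at 139, 166 and 178 CPM in resting WT and at 242, 215 and 1038 in resting KO. Without that library the differences were 0.36 ± 0.22 and 0.51 ± 0.23, and neither was called. Without it Dbf4 (−0.72 ± 0.23) and Clspn (−1.005 ± 0.30) were not called either, so that the counts at rest were 0 of 13 licensing and firing factors, 3 lower and 1 higher of 22 replisome genes, 1 lower of 6 chromatin genes and 0 of 19 nucleotide genes. With LPS 2 of these 19 were called lower, Dut and Ung.

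Of 27 E2F factors, pocket proteins and G1 regulators, 6 were called lower in resting KO and 0 higher. They included Ccna2, which encodes cyclin A2 (−2.16 ± 0.33), the repressor E2Fs E2f7 (−1.93 ± 0.53) and E2f8 (−1.03 ± 0.23), and the inhibitor gene Cdkn2c (−1.13 ± 0.21). The count was again 6 without resting KO replicate 3, but E2f7 was not called (−1.60 ± 0.53). With LPS 2 were called lower, Ccnd1, which encodes cyclin D1 (−1.62 ± 0.16), and Ccna2 (−1.45 ± 0.33).

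A list of 30 mitosis genes, the next step of the cell cycle, was set beside the replication genes. In resting KO 29 of 30 were called lower with a median of −1.93, beside 11 of 45 and −0.44 for the replication genes. With LPS 10 of 30 were called lower with a median of −1.22, beside 20 of 45 and −0.67. Cenpf (−2.31 ± 0.41), Ccnb1 (−2.17 ± 0.37), Bub1 (−2.15 ± 0.36) and Prc1 (−2.12 ± 0.38) had the largest resting differences. The resting count of mitosis genes was again 29, and the median −1.85, without resting KO replicate 3. The difference between the lists was not tested. Their promoters also held different words. The E2F words stood in 1 of 26 matched mitosis genes, while TTTGAA, the cell cycle homology word, stood in 20 of 26 and in 7 of the 37 replication genes, against 14.5% of tested genes. CCAAT stood in 20 of 26 mitosis genes and in 23 of the 37 replication genes, against 43.5% of tested genes. Both words were searched on either strand.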

How the data were processed

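Raw counts of 18 libraries were used as deposited. The authors made directional libraries from rRNA-depleted RNA, trimmed reads with cutadapt 1.8.3, removed reads of ribosomal DNA, aligned the rest to mm10 with HISAT2 2.1.0 and counted them by strand per Gencode M15 gene with featureCounts 1.5.3 (versions from the submitters' processing notes). Exon lengths come from the same table. Here, filterByExpr (minimum count 10) kept 11357 genes, TMM scaled them, and 1 quasi-likelihood fit over 6 groups gave 11 comparisons (edgeR 4.0.16, R 4.3.3). Tests were two-sided and genes were called at a Benjamini-Hochberg adjusted p under 0.05. CPM are counts per 1000000 of scaled library size. On simulated data for KO against WT at rest, over 11230 genes, 13% of 100 genes changed by 0.5 and 80% of 100 changed by 1 (log2) were called. The changed genes were drawn from those with higher counts, and all other genes were simulated at 1 level in every group. In all, 98 genes were called there and 1067 in the data, so these shares need not hold for the data. Library depth was 4071084 to 19818043 counts. Positions and UTRs come from GENCODE M21 and promoters and miRNAs from RefSeq, both on GRCm38. The labels give 3 mice per genotype and separate cultures, and do not say whether equal replicate numbers mark 1 mouse. The 45 genes, the other lists and the tests were chosen with earlier results of these data known. Per role, the gene with the highest level per kb in resting WT was named with its WT and KO values in both states. So was the gene with the largest resting KO difference, and so were genes called against the common direction. The gene with the smallest difference over all roles has these values at rest alone. Values of 3′F libraries are given for few of these genes. Other genes given with values, such as Cdc6, Uhrf1, E2f2, Tyms, Tk1 and Mcm10, were chosen after their values were seen. From the other lists, up to 4 called genes were named. The counts of the other lists without resting KO replicate 3 were added after the data were seen.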

Additional observations from a re-analysis of the deposited data

How the results depend on the processing

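The alternatives were RLE size factors, no filter on low counts, DESeq2 1.42.0, limma-voom with quality weights (limma 3.58.1), the compared groups fitted alone, a replicate block and leaving out each library. Counts of the 45 genes called stayed within 1.5 times the reported count except where given. The share of all tested genes called in each alternative is not given beside these counts. Quality weights called 29 genes in KO against WT at rest (11 reported) and 29 in KO against 3′F at rest (17 reported). The compared groups alone gave 0 for KO against 3′F at rest, and DESeq2 gave 1 for the KO interaction (0 reported). Leaving out each library in turn gave 6 to 11 genes for KO against WT at rest and 11 to 18 with LPS, 8 to 17 for KO against 3′F at rest and 6 to 15 with LPS, 13 to 24 for LPS in WT, 23 to 28 in KO and 17 to 30 in 3′F, and 0 to 0 for 3′F against WT in both states and for both interactions. For named genes, 882 values kept their direction and their side of the threshold, 95 lost a call, 30 gained a call and 13 changed sign. Changes of sign were seen in Gins4 and Rfc2, with values near 0. The LPS response of Gins4 in KO, 0.004 as reported, was −0.031 with RLE, −0.045 with no filter, −0.027 with DESeq2 and −0.045 in the groups alone, and −0.12 to 0.26 without each library in turn. Its KO difference with LPS, −0.02 as reported, was −0.055 to 0.036 without each library in turn. The resting KO difference of Rfc2, 0.03 as reported, was −0.19 with quality weights, −0.027 with the replicate block and −0.25 to 0.16 without each library in turn, −0.25 being the value without resting KO replicate 3. The cause of these moves was not tested. Same-numbered libraries correlated by 0.0283 to 0.318 between states of a genotype, with 5 of 9 pairs over 0.1 and 8 of 9 best with their own number, and by −0.287 to 0.214 between genotypes of a state, with 4 of 18 over 0.1. Between genotypes 5 of 18 pairs were best with their own number. The labels do not state a pairing, so the reported tests, those of LPS and of the interaction included, did not use the numbers. Whether the libraries of a genotype are paired was not settled. With the number as a block, 11 genes were called in KO against 3′F at rest, and no other count moved by over 1.5 times. With 3 libraries a group an exact permutation test could not go below 0.1. The shallowest library limits what could be called, and small changes were seldom called in the simulation, whose setting differs from the data.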
